A study of Rattus norvegicus with 71 samples.

Results

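The 10 genes described here encode enzymes of glycolysis and lactate metabolism: Ldha, Ldhb, Eno1, Eno2, Pkm, Aldoa, Aldoc, Pgk1, Hk1 and Pfkp. They were chosen by symbol, and all 10 were found among the 17494 genes of the count table. The products of 3 of them are autoantigens of the maternal autoantibody-related autism (MARA) model studied: LDHA and LDHB in 1 antibody pattern, and neuron-specific enolase (NSE), the product of Eno2, in another.

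RNA was measured in brain slices of 71 wild-type Sprague-Dawley rats, of both sexes, from 27 litters at postnatal day (PND) 2. Dams had been immunised before pregnancy with synthetic peptides in Freund's adjuvant, so that offspring were exposed to the antibodies in utero, and control dams received adjuvant with saline. The groups were 24 controls (7 litters), 8 CRMP1+CRMP2 (4 litters), 25 LDHA/B+CRMP1+STIP1 (9 litters), 6 CRMP1+GDA (3 litters) and 8 STIP1+NSE (4 litters). Of the 24 controls, 12 were in each of 2 batches; 16 of the LDHA/B+CRMP1+STIP1 animals were in batch 1 and the remaining exposed animals in batch 2, so 3 of the patterns were seen in 1 batch only. The sample labels name a coronal slice with hippocampus and adjacent cortical and subcortical structures, whereas the series text names frontal cortex and hypothalamus. Because whole slices were measured, fewer cells of a type and less RNA per cell cannot be told apart.

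Libraries held between 24880182 and 36234952 counted reads. Markers of cortex and hippocampus were present in every library (summed 545 to 1962 CPM, counts scaled to the same library total), but the slices did not hold the same structures throughout. The summed choroid plexus markers (6 genes) had a median of 23.4 CPM in batch 1 and 1041 CPM in batch 2, and the thalamus markers (5 genes) of 81.9 and 725.9 CPM. Pineal or Hox gene markers summed to more than 10 CPM in 12 libraries, 4 of them CRMP1+CRMP2 and 1 a control. Littermates resembled each other, with a correlation of 0.255 to 0.383 within litters depending on the comparison.

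Glycolysis converts glucose to pyruvate. Hexokinase (Hk1) traps glucose as its phosphate, phosphofructokinase (Pfkp is the platelet-type subunit) commits it to the pathway, aldolase (Aldoa, Aldoc) splits the sugar, and phosphoglycerate kinase (Pgk1), enolase (Eno1, Eno2) and pyruvate kinase (Pkm) complete the payoff phase. Lactate dehydrogenase, a tetramer of LDHA and LDHB subunits, interconverts pyruvate and lactate. In brain, Eno2 is the enolase of mature neurons and Aldoc is the aldolase of astrocytes, while Eno1 and Aldoa are used more widely. Several of these genes are classical targets of the hypoxia-inducible factor, which binds DNA around the letters ACGTG.

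The promoters of the 3 antigen genes and of Pfkp, which varied against Ldha, Ldhb, Eno1 and Pgk1, are shown with any match to that motif marked. They are RefSeq sequences of the GRCr8 build, from 250 bases before to 50 bases after the annotated start, 5′ to 3′ on the gene's strand, and capitals mark ACGTG on either strand (ACGTG or CACGT). The windows lie at chr1:106507842-106508141, plus strand (Ldha), at chr4:177177359-177177658, minus strand (Ldhb), at chr4:159267171-159267470, minus strand (Eno2) and at chr17:68639563-68639862, plus strand (Pfkp).
Ldha: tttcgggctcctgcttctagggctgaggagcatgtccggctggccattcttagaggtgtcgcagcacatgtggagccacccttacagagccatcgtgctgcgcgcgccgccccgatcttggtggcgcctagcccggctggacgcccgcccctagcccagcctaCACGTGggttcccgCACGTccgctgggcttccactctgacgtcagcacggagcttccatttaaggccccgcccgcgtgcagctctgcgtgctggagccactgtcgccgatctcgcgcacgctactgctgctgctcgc
Ldhb: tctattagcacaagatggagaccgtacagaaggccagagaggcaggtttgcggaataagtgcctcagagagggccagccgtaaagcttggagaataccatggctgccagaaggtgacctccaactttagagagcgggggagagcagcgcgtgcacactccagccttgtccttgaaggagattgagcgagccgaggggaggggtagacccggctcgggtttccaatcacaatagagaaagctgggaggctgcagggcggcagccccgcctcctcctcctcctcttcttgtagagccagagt
Eno2: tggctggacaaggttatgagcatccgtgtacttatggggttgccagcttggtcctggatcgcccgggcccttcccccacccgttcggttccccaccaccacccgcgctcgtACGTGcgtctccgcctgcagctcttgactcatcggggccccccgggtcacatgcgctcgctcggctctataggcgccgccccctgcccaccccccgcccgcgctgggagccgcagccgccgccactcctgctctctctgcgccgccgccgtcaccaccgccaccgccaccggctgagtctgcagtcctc
Pfkp: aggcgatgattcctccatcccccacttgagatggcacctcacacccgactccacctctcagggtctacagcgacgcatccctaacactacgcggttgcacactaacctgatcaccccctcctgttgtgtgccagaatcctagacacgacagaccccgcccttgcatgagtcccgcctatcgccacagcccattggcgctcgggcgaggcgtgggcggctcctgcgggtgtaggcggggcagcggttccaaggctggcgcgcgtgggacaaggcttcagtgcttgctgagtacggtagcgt
Ldha had 3 matches, of which a pair overlap in 1 palindrome, CACGTG, and Eno2 had 1. Ldhb and Pfkp had no ACGTG in this window. Variants with another first letter, such as GCGTG, were not counted in any promoter. Of the 10 genes, 9 had promoters in the table (13 windows), and 6 windows, from 6 genes, held the motif (Ldha, Eno1, Eno2, Aldoa, Aldoc and Hk1). Over all 33469 promoters of the same length the share was 19.3%. A match is a description of the letters and not a binding site.

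Levels are given first per length, as RPKM (read counts divided by exon length in kilobases and by the library total), since only these compare genes. Eno1 (chr5:160719951-160731337 in rn7, the build of the counts) was the most abundant, at 363 ± 21.6 RPKM (SD, n = 71). Aldoa (chr1:181402275-181407476) followed at 316 ± 40.5 RPKM and Pkm (chr8:60057840-60079365) at 243 ± 16.6 RPKM. These 3 were separated from each other in nearly every animal, Eno1 being above Aldoa in 68 of 71 libraries and Aldoa above Pkm in 70 of 71.

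The lactate dehydrogenase subunits came next. Ldha (chr1:97371823-97381242) stood at 206.5 ± 25.1 RPKM and Ldhb (chr4:175428382-175446403) at 160.5 ± 17.9 RPKM. Ldha was the higher of the pair in all 71 libraries, in each group and both batches.

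In the middle of the order neighbours lay close together. Hk1 (chr20:30230490-30299351) stood at 155.7 ± 7.39 RPKM, Eno2 (chr4:157572085-157580936) at 142 ± 16.5 RPKM, Pgk1 (chrX:71271454-71287429) at 131 ± 12.8 RPKM and Aldoc (chr10:63217477-63221066) at 128 ± 22.8 RPKM. Between Ldhb and Hk1 the mean log2 ratio of RPKM was 0.04 ± 0.17 (SD), between Hk1 and Eno2 0.14 ± 0.15, between Eno2 and Pgk1 0.12 ± 0.16, and between Pgk1 and Aldoc 0.04 ± 0.24, in each case less than its spread over animals. Hk1 exceeded Eno2 in 60 of 71 libraries and Eno2 exceeded Pgk1 in 55, whereas Ldhb exceeded Hk1 in 43 and Pgk1 exceeded Aldoc in 45.

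Pfkp (chr17:63729830-63794017) was the lowest and by far the most variable member, at 73.7 ± 26.6 RPKM. Its RPKM ran from 28.1 to 137 over the animals, a 4.89-fold range, whereas the range of Hk1 was 1.26-fold. The coefficient of variation of RPKM was 36.1% for Pfkp, 17.7% for Aldoc and between 4.75% and 12.8% for the other 8 genes.

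**Figure D1:**
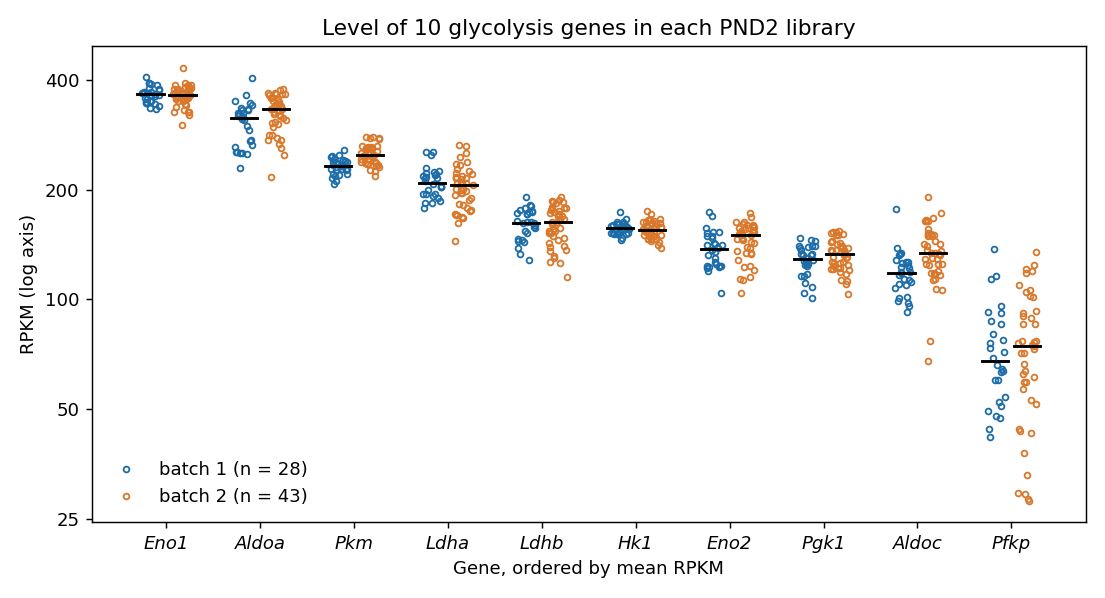
RPKM (log axis) of the 10 genes in each of the 71 libraries, split by batch, with a bar at each median. Eno1 is highest at a mean of 363 RPKM, and Pfkp, at 73.7 RPKM, spreads from 28.1 to 137.

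There are 3 pairs of isozymes among the members, each pair serving 1 step of the pathway. Ldha made up 56.2% ± 1.77 (SD, n = 71) of the summed Ldha and Ldhb RPKM, with a range of 52.4% to 61.2%. Eno2 made up 28.1% ± 2.14 of the summed Eno2 and Eno1 RPKM (range 22.9% to 32.9%). Aldoc made up 28.8% ± 2.17 of the summed Aldoc and Aldoa RPKM (range 20.3% to 34.4%). At PND2 the neuron- and astrocyte-associated isozymes were thus the minor transcripts of their steps in every library.

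None of these ratios passed the test between exposed and control litters. Litter means of the log2 RPKM ratio were compared within a batch by exact two-sided permutation tests, in 15 tests (5 pattern and batch contrasts for 3 ratios), and the Benjamini-Hochberg adjusted p was 0.73 or more throughout. For Ldha/Ldhb in LDHA/B+CRMP1+STIP1, the pattern raised against both proteins, the log2 difference from controls was -0.04 in batch 1 (exact permutation p = 0.49, 4 litters against 3) and -0.01 in batch 2 (exact permutation p = 0.81, 5 litters against 4). For Eno2/Eno1 in STIP1+NSE it was -0.07 (exact permutation p = 0.23, 4 litters against 4). With 4 litters against 4 or 3 the smallest p these tests allow is 0.0286, and with 5 against 4 it is 0.00794. After adjustment over 15 tests, 1 ratio standing alone could not pass at 0.1. The lack of calls therefore does not show that the ratios were equal. Eno2/Eno1 was lower than in controls in all 5 contrasts, by 0.02 to 0.14 on the log2 scale, and the 4 contrasts of batch 2 share their controls.

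The first question for the antigen genes was whether their own transcripts differed in offspring exposed to antibodies against their products. In CPM, which serves to compare 1 gene between animals, Ldha in batch 1 had a lowest, median and highest value of 293.7, 347.9 and 404.8 in controls and of 284.6, 322.1 and 398.5 in LDHA/B+CRMP1+STIP1. In batch 2 these were 281.7, 326.7 and 402.5 CPM in controls and 271.7, 329.1 and 365.2 CPM in the exposed animals. The groups overlapped almost completely in both batches, with 15 of 16 exposed animals of batch 1 and 7 of 9 of batch 2 inside the range of their batch's controls. The log2 fold change of Ldha over both batches was -0.08 (95% interval -0.16 to 0.00; edgeR quasi-likelihood test, adjusted p = 0.71).

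Ldhb was closer still. Its batch 1 values were 181.9, 238.2 and 257.3 CPM in controls and 189.2, 226.2 and 270.3 CPM in exposed animals, and its batch 2 values were 193.2, 232.8 and 264.8 CPM and 186.4, 235.2 and 262.7 CPM. The log2 fold change was -0.04 (95% interval -0.12 to 0.04; edgeR adjusted p = 0.91). With runs of 5 consecutive dam numbers as a block within batch 2, both were lower and neither passed: Ldha had a log2 fold change of -0.15 (95% interval -0.24 to -0.06; edgeR adjusted p = 0.16, raw p = 0.0025) and Ldhb of -0.15 (95% interval -0.26 to -0.04; edgeR adjusted p = 0.22, raw p = 0.012).

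Eno2 in STIP1+NSE ran from 267.6 through a median of 337 to 358.2 CPM, against 309.7, 340.8 and 372.9 CPM in the controls of the same batch. The medians nearly coincided, and 3 of 8 exposed animals lay below the control range. The log2 fold change against all 24 controls was -0.11 (95% interval -0.23 to 0.02; edgeR adjusted p = 1.00, raw p = 0.088).

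Antigen specificity was examined for 2 patterns, LDHA/B+CRMP1+STIP1 and STIP1+NSE. Each was set against the mean of the other 3 within batch 2, where all 4 patterns were present. For LDHA/B+CRMP1+STIP1, 0 of 10 genes passed (edgeR, background 0.00785% of 12738 genes; 0 of the 10 at a raw p under 0.05), and the log2 differences were -0.02 for Ldha (95% interval -0.18 to 0.13) and 0.02 for Ldhb (-0.12 to 0.17). For STIP1+NSE, 0 of 10 passed (edgeR, background 0.0%; 0 at a raw p under 0.05), and Eno2 differed by 0.06 (95% interval -0.08 to 0.20). These contrasts were fitted without a block for the dam numbers. In both, the mean of the other 3 included CRMP1+CRMP2, where the log2 fold changes against control were -0.16 for Ldha, -0.17 for Ldhb and -0.22 for Eno2. A difference near 0 is therefore relative to a mean that holds these lower values.

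**Figure D2:**
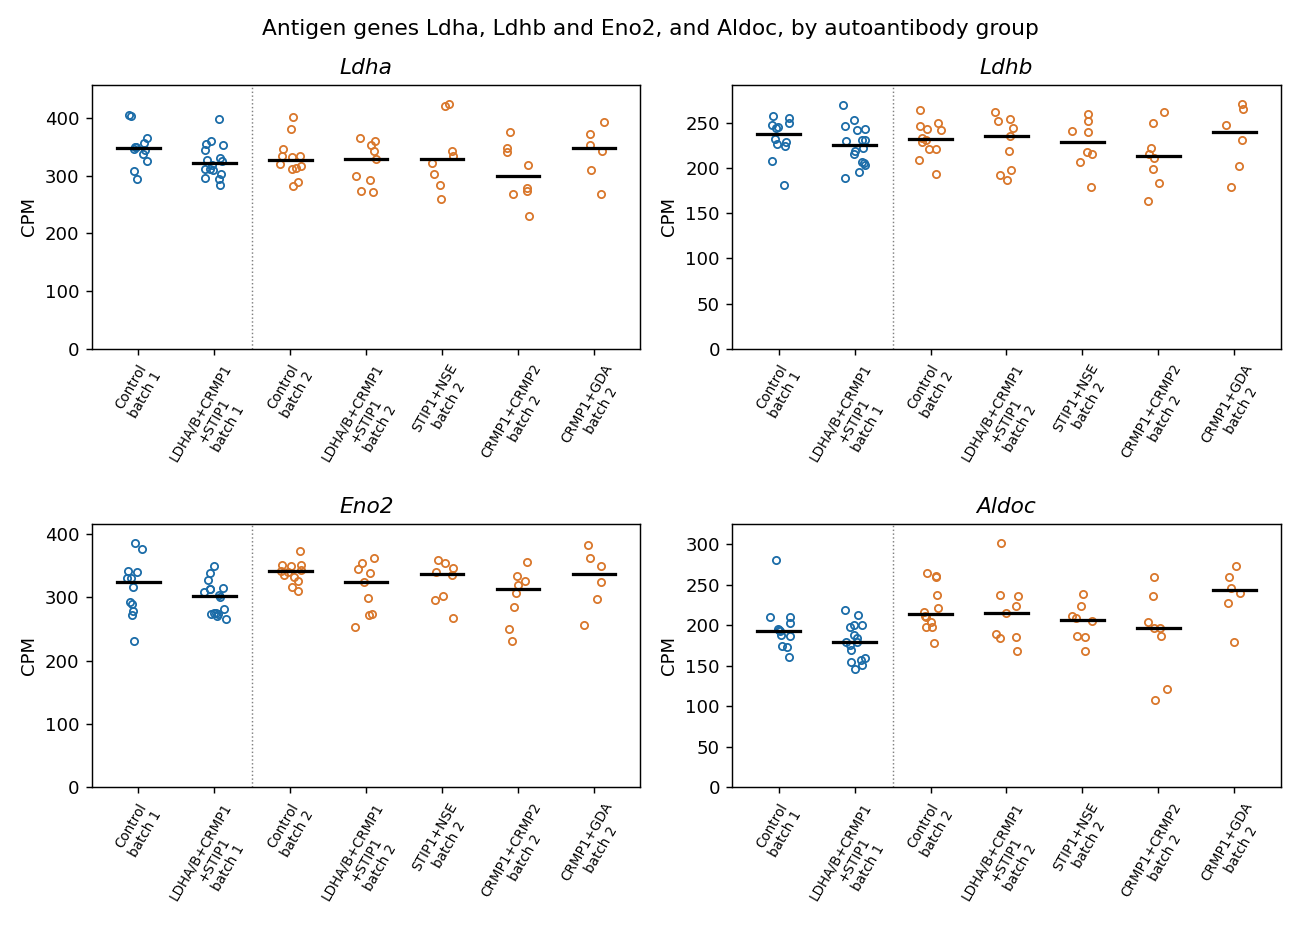
CPM of Ldha, Ldhb, Eno2 and Aldoc in each animal by group and batch, with a bar at each group's median. The groups overlap for all 4 genes; the lowest animals for Ldha (230.6 CPM), Ldhb (163.5 CPM) and Aldoc (107.3 CPM) are CRMP1+CRMP2.

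CRMP1+CRMP2 was the pattern in which glycolysis genes passed the test. Of the 10 genes, 6 fell against the 24 controls (edgeR with 1 surrogate variable, false discovery rate, FDR, under 0.1) and none rose, where 11.4% of 12691 genes were called. The members' median log2 fold change was -0.13 and that of all genes was 0.01. Aldoc fell by 0.31 on the log2 scale, Aldoa by 0.24 and Eno2 by 0.22, and Ldhb, Eno1 and Pkm by 0.17, 0.10 and 0.09. The changes were small, and all rest on 8 animals of 4 litters.

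Aldoc ran from 107.3 through a median of 197.1 to 259.4 CPM in CRMP1+CRMP2. The controls had 178.3, 214.2 and 264.1 CPM in batch 2 and 160.5, 193.3 and 280.3 CPM in batch 1. Of the 8 exposed animals, 2 lay below the batch 2 range and 6 inside it (log2 fold change -0.31, 95% interval -0.49 to -0.13, adjusted p = 0.040 in edgeR).

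Aldoa had 349.6, 497.8 and 565.6 CPM in CRMP1+CRMP2 against 493.1, 549.6 and 591.9 CPM in the controls of batch 2 and 368.3, 527.6 and 652.4 CPM in those of batch 1. Of the 8 exposed animals, 7 were below the median of the batch 2 controls and 4 were below their range (log2 fold change -0.24, 95% interval -0.37 to -0.12, edgeR adjusted p = 0.025). Eno2 behaved likewise, with 230.7, 312.6 and 355.5 CPM, 7 of 8 animals below the batch 2 control median and 4 below the range (log2 fold change -0.22, 95% interval -0.34 to -0.10, edgeR adjusted p = 0.027). Batch 1 controls reached down to 231.5 CPM for Eno2.

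The lactate dehydrogenase genes, not the targets of this pattern, were also at the low end. Ldhb had 163.5, 213.4 and 262 CPM, with 6 of 8 animals below the batch 2 control median (log2 fold change -0.17, 95% interval -0.29 to -0.04, edgeR adjusted p = 0.092). Ldha had 230.6, 298.8 and 376.1 CPM, with 4 of 8 animals below the batch 2 control range, and did not pass (log2 fold change -0.16, 95% interval -0.29 to -0.02, edgeR adjusted p = 0.15), although it did with PC1 and PC2 as covariates (-0.20, edgeR adjusted p = 0.066) and without litter 9_1, 9_10 or 9_16. Litter mattered for both, since the litter means of Ldha were 249, 276.4, 345.2 and 347.5 CPM.

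Eno1 had 568.8, 662.2 and 719.7 CPM in CRMP1+CRMP2 and 636.7, 680.6 and 734 CPM in batch 2 controls (edgeR adjusted p = 0.095). Pkm had 429.1, 469.5 and 512.5 CPM against 466.3, 490.4 and 545.6 CPM (edgeR adjusted p = 0.086). Pgk1 (log2 fold change -0.08, edgeR adjusted p = 0.32) and Hk1 (-0.05, edgeR adjusted p = 0.38) did not pass. Pfkp, at 138.3, 224.6 and 317 CPM, lay wholly inside the 75.4 to 363 CPM of the batch 2 controls (log2 fold change 0.04, 95% interval -0.41 to 0.49).

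The 6 calls depended on the litters and on the covariates used. All were lost when batch and sex replaced the surrogate variable, within batch 2 alone, and when litter was the unit of replication, although 9 of 10 members kept a negative fold change in each of these. Calls fell over all genes too, to 491 of 12691 with batch and sex, 127 of 12605 within batch 2, and 0 of 12691 by litter. For Aldoa the log2 fold change was then -0.22 with batch and sex (edgeR adjusted p = 0.12), -0.22 within batch 2 (edgeR adjusted p = 0.12) and -0.23 with litter as a random effect (limma adjusted p = 0.32). Without litter 9_6, which had the lowest litter means of Ldha (249 CPM), Ldhb (189.4 CPM), Eno2 (268.6 CPM) and Aldoa (419.6 CPM) in its group, 0 of 10 genes passed in edgeR (3 at a raw p under 0.05) and 41 genes were called in all. The log2 fold changes were then -0.18 for Aldoa, -0.23 for Aldoc and -0.17 for Eno2, but -0.10 for Ldhb, -0.05 for Ldha and -0.04 for Eno1. Leaving out control litter 9_5 or IgG2 left 3 calls (Aldoa, Aldoc and Eno2), where 1016 of 12676 and 804 of 12661 genes were called.

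The other litters numbered next to 9_6 were also low for Ldha. In batch 2 the dam numbers pass through the groups in a fixed order, 5 numbers at a time, and the study's methods mention cohorts of litters collected close together, but the labels do not say which litters formed 1 cohort. The 5 litters of dams 9_6 to 9_10 had Ldha means of 249 to 307 CPM, and the 5 of dams 9_1 to 9_5 of 347.5 to 422.4 CPM. For Pfkp these were 255.3 to 323.3 CPM and 75.7 to 190.3 CPM. These runs did not overlap for either gene, and each held a litter of every group.

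Within a run the CRMP1+CRMP2 litter could be set beside its control litter, which 3 runs allow. Ldhb means were 216.9, 189.4 and 191.6 CPM in the CRMP1+CRMP2 litters and 257.4, 223.7 and 232.8 CPM in the controls of the same runs. Ldha, Ldhb, Eno1, Eno2, Aldoa and Pgk1 were lower than the control in 3 of 3 runs, Pkm and Aldoc in 2, Hk1 in 1 and Pfkp in 0. With the run as a block within batch 2, 8 of 10 genes fell (edgeR, where 30.6% of 12605 genes were called), and with litter as a random effect as well, 6 of 10 (limma, where 23.5% were called), namely Aldoa, Aldoc, Eno2, Ldha, Ldhb and Pgk1. In that last fit the log2 fold change was -0.24 for Ldha (95% interval -0.37 to -0.11, limma adjusted p = 0.015), -0.27 for Ldhb (-0.43 to -0.12, limma adjusted p = 0.019) and -0.31 for Aldoa (-0.48 to -0.14, limma adjusted p = 0.016). Pfkp was 0.44 (-0.02 to 0.90, limma adjusted p = 0.18). This block was chosen after the values were seen, and it rests on 3 pairs of litters.

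Markers of other tissues and regions moved with the same comparison. In CRMP1+CRMP2, 6 of 6 choroid plexus markers and 5 of 5 pineal markers rose, and 3 of 8 neuronal markers (Stmn2, Nefl, Syt1) fell. Of these 8 neuronal markers, 6 had a negative and 2 a positive fold change (list median -0.10). Of 7 oligodendrocyte-lineage markers, Sox10 and Olig1 fell, while 4 had a positive fold change (list median 0.02). Hbb rose (log2 fold change 0.71, edgeR adjusted p = 0.087) among 8 erythroid markers, all 8 with a positive fold change. Neurod2 rose (0.29, edgeR adjusted p = 0.068) among 6 markers of cortex and hippocampus, of which 4 had a positive and 2 a negative fold change (list median 0.007). None of these calls remained with litter as a random effect or with counts summed per litter.

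Summed choroid plexus markers ran from 197.2 to 3293 CPM in CRMP1+CRMP2, 134.9 to 2871 CPM in batch 2 controls and 3.67 to 109 CPM in batch 1 controls, and none of the 6 was at 0 in more than 2 of all libraries. Summed pineal markers ran from 3.17 to 249 CPM against 1.90 to 6.58 CPM in all controls, with Crx at 0 in 57 of the 71 libraries. The cortex and hippocampus markers summed to 1057 ± 326.6 CPM (SD, n = 8) in CRMP1+CRMP2 and 871.2 ± 115.6 CPM (n = 12) in batch 2 controls, and the thalamus markers to 569.7 ± 313.6 CPM and 741.6 ± 161.3 CPM. In all 24 controls, those used in the test, the sums were 1185 ± 358.5 CPM and 415.7 ± 351.6 CPM. The part of these tissues in the fold changes of the members was not tested. Without the 12 libraries with pineal or Hox RNA, which leaves 4 CRMP1+CRMP2 animals, 0 of 10 members passed (edgeR; 4 at a raw p under 0.05) and 1 gene of 12590 was called. The log2 fold changes were -0.20 for Aldoa, -0.26 for Aldoc and -0.20 for Eno2, and Ldhb went from -0.17 to -0.10.

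**Figure D3:**
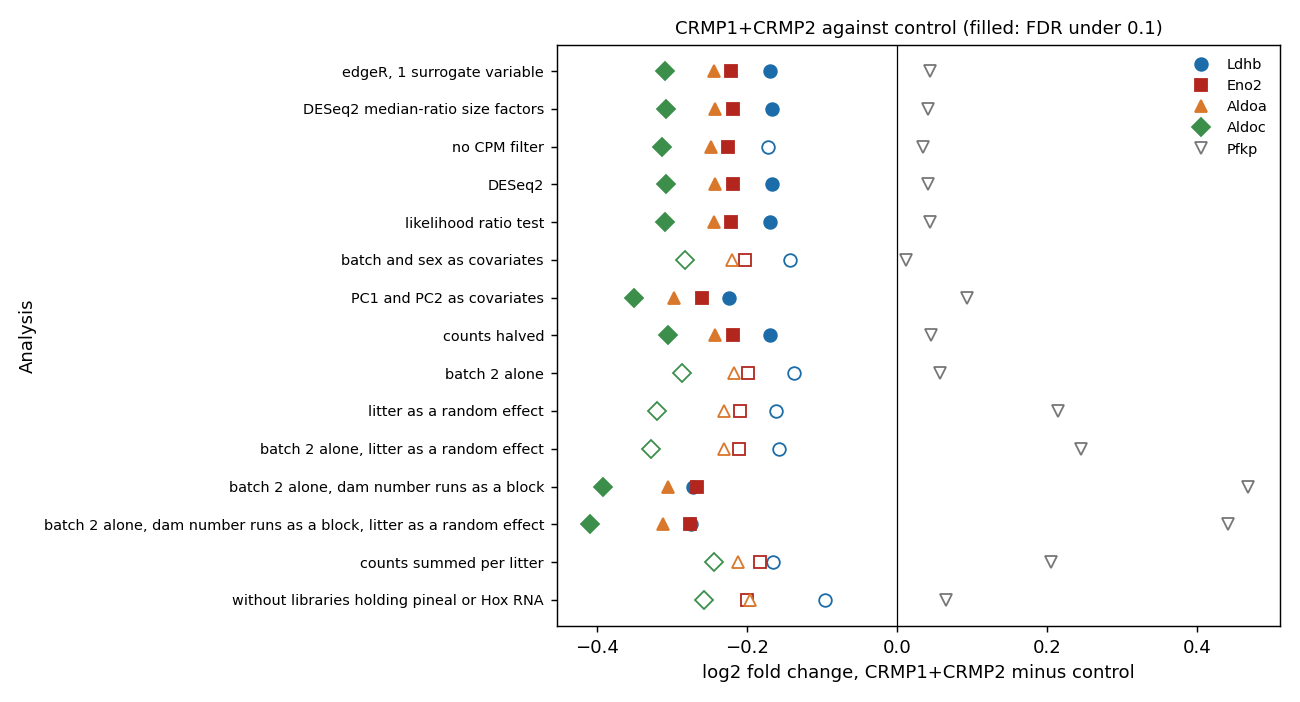
Log2 fold change of 5 members in CRMP1+CRMP2 against control (x axis) in each analysis (y axis), filled where the FDR was under 0.1. Ldhb, Eno2, Aldoa and Aldoc stay below 0 in each of these analyses, but are unfilled with batch and sex, within batch 2, by litter and without the libraries with pineal or Hox RNA, and filled with runs of dam numbers as a block. Ldhb is also unfilled without a CPM filter.

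Neighbouring steps of the pathway were taken from lists. Of the other glycolytic enzymes (list median -0.07), 4 of 17 tested fell in CRMP1+CRMP2 and none rose, where 11.4% of 12691 genes were called. These were Pfkm, the muscle-type phosphofructokinase (-0.14, edgeR adjusted p = 0.013), Tpi1 (-0.21, adjusted p = 0.066), Gapdh (-0.16, adjusted p = 0.070) and Pgam1 (-0.18, adjusted p = 0.080). Gpi (-0.13, edgeR adjusted p = 0.11), Hk2 (0.26, adjusted p = 0.26) and Pfkl (-0.07, adjusted p = 0.33) did not pass. None of the 17 was called with litter as a random effect, with counts summed per litter, in batch 2 alone, without litter 9_6 or without the libraries with pineal or Hox RNA, and 2 were with batch and sex. With the dam-number runs as a block, 6 were called lower and 2 higher (edgeR, where 30.6% of 12605 genes were called).

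Over the 6 lists together, 9 of 63 genes were called, 14.3% against the 11.4% of all genes, and 0 with litter as a random effect (limma). Outside the enzymes, the pentose phosphate list had 1 of 7 called, Pgls, a lactonase of that shunt (-0.26, edgeR adjusted p = 0.016), and the other hypoxia-induced genes had 1 of 9, Bnip3, a mitophagy receptor (-0.22, adjusted p = 0.027). Mpc1 of the mitochondrial pyruvate carrier (-0.19) was the 1 call among 10 transport genes, Pdha1 of pyruvate dehydrogenase (-0.16) the 1 among 5, and Arnt, the partner of the hypoxia-inducible factor, the 1 among 15 regulators and the 1 that rose (0.35). These 3 were named after their values were seen. In the other 4 main comparisons none of the genes of the 6 lists passed in edgeR, with between 2 and 7 of them at a raw p under 0.05.

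Taking all 47 exposed animals together, 0 of 10 genes passed against the 24 controls (edgeR, background 0.0321% of 12477 genes), and DESeq2 also called 0. At a raw p under 0.05 there were 4: Aldoa (log2 fold change -0.12), Aldoc (-0.11), Eno2 (-0.10) and Pkm (-0.05). All 10 fold changes were negative, with a median of -0.06 against 0.00 for all genes. Within batch 2 with the dam-number runs as a block, 3 of 10 passed (Aldoa, Ldha and Ldhb; edgeR, where 12.3% of 12384 genes were called), and 0 with litter as a random effect as well (limma, where 2.34% were called; 5 at a raw p under 0.05). In LDHA/B+CRMP1+STIP1, 0 of 10 passed (edgeR, background 0.0157%; DESeq2 0), and Aldoa (-0.11), Pkm (-0.06) and Eno2 (-0.08) had a raw p under 0.05. In batch 1, Aldoa had 402.6, 471.6 and 538.8 CPM in exposed animals and 368.3, 527.6 and 652.4 CPM in controls, and in batch 2 it had 401.4, 518.7 and 586 CPM against 493.1, 549.6 and 591.9 CPM, so the groups overlapped in both. All 10 fold changes were again negative, but most members varied together over the libraries, and the 5 main comparisons share the same controls.

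In CRMP1+GDA, 0 of 10 passed (edgeR, background 0.0%; 0 at a raw p under 0.05; DESeq2 0), and 5 fold changes were negative. That split rested on single litters: without litter 9_3, 9 of 10 were negative with a median of -0.06, and without litter 9_8, 4 were, with a median of 0.04, each with 2 genes at a raw p under 0.05. Aldoc, with 180, 243.4 and 273 CPM, had the highest group median there, and Pfkp, with 102, 117.7 and 280.7 CPM, the lowest. In STIP1+NSE, 0 of 10 passed (edgeR, background 0.0474%; DESeq2 0), and Aldoc was the 1 gene with a raw p under 0.05 (log2 fold change -0.18, 95% interval -0.31 to -0.05). Its values in STIP1+NSE were 168.7, 207.1 and 239.3 CPM, close to those of the batch 2 controls. With batch and sex as covariates, or in batch 2 alone, no gene had a raw p under 0.05. Without litter 9_2, 4 genes did (Aldoa, Aldoc, Eno2 and Ldhb), 9 of 10 fold changes were negative and their median went from -0.02 to -0.10. The intervals of Pfkp were the widest in all 5 main comparisons, and -0.91 to 0.28 in CRMP1+GDA left a change of either sign within the interval.

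**Figure D4:**
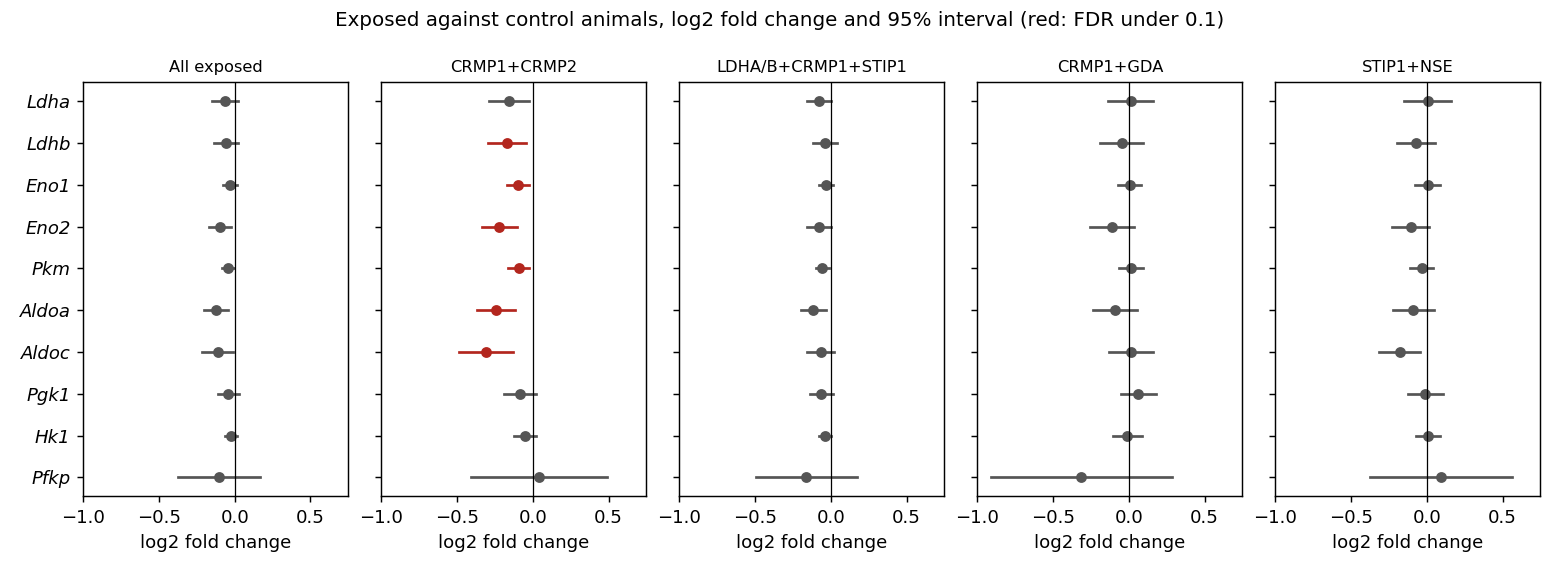
Log2 fold change (x axis) of the 10 genes with 95% intervals for all exposed animals and for each pattern against 24 controls, red where the FDR was under 0.1. In all, 6 genes are red, all below 0 and all in CRMP1+CRMP2, and the intervals of Pfkp are the widest in each panel.

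LDHA/B+CRMP1+STIP1 was present in both batches, so its effect could be set against itself. In batch 1, 0 of 10 genes passed (edgeR, background 0.0%; 1 at a raw p under 0.05, Aldoa at -0.14), and in batch 2, 0 of 10 passed (edgeR, background 0.0551%; 0 at a raw p under 0.05, Aldoa at -0.12). All 10 fold changes were negative in each batch, which do not share animals or controls. Most members varied together over the libraries, so their signs are not separate results. The difference between batches passed for 0 of 10 genes (edgeR, background 0.11%; 0 at a raw p under 0.05). For Ldha the fold changes were -0.10 (95% interval -0.20 to 0.01) and -0.05 (-0.17 to 0.07).

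Controls of the 2 batches differed in 41.5% of 12565 genes, and of the 10 members 2 were called, below that share: Eno1 was lower in batch 2 (log2 difference -0.06, edgeR adjusted p = 0.082) and Aldoc was higher (0.14, adjusted p = 0.095). Neither was called with median-ratio size factors or with litter as a random effect. Males and females differed in 0 of 10 members (edgeR, background 0.0624%; 0 at a raw p under 0.05), Aldoc having a log2 difference of 0.09 (95% interval -0.02 to 0.19).

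Within batches, the members other than Pfkp varied in the same direction. Over the 71 libraries, with log2 CPM centred within batch, the median Pearson r of the 36 pairs without Pfkp was 0.58 (range 0.15 to 0.88), and none was negative. Over all 45 pairs the median was 0.54, with 7 negative. These libraries share litters, groups and dissections, so the r values are descriptions. Between litters lay 50.7% (Hk1) to 80.6% (Pfkp) of each gene's centred sum of squares.

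By their strongest correlations the members formed overlapping sets. Ldha, Ldhb, Eno1 and Pgk1 varied together, with r of 0.71 to 0.87 and the highest for Ldha with Pgk1 (Spearman rho 0.88). Aldoa, Aldoc, Eno2 and Pkm formed the other set, with r of 0.68 to 0.88 and the highest for Aldoa with Eno2. The sets were not separate: Ldhb with Aldoa had 0.72, as high as some pairs within a set. Eno1 with Pkm had 0.66, just under the lowest pair within a set. The enolase isozymes fell into different sets, Eno2 with Eno1 having r = 0.44 (0.26 in batch 1 and 0.53 in batch 2), whereas Ldha with Ldhb had 0.82 and Aldoc with Aldoa 0.79. Hk1 changed with batch: its r with Eno2 was -0.04 in batch 1 and 0.68 in batch 2.

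Regional markers had their strongest correlations with the second set. The summed cortex and hippocampus markers had r of -0.76 with Eno2, -0.75 with Aldoc, -0.73 with Aldoa and -0.60 with Pkm over the 71 libraries, against -0.19 with Ldha, -0.21 with Eno1, -0.33 with Pgk1 and -0.38 with Ldhb. The thalamus markers had r of 0.57 with Eno2, 0.58 with Aldoc and -0.26 with Ldha. In batch 1 alone Ldhb had -0.70 with the cortex and hippocampus markers and 0.57 with the thalamus markers, like the second set. Astrocyte and radial glia markers had their highest r with Aldoc (0.72). The neuron markers had theirs with Hk1 (0.52), and with Eno2 only 0.20, of opposite sign in the batches (-0.57 in batch 1 and 0.63 in batch 2).

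Pfkp ran against the first set. Its r was -0.67 with Ldha, -0.66 with Pgk1, -0.60 with Ldhb and -0.54 with Eno1, and these stayed negative in both batches (for Ldha -0.49 and -0.73) and without the 2 libraries farthest from the median of Ldha (-0.69). With Eno2 it was 0.04, with Hk1 0.0052, and with Aldoa, Aldoc and Pkm -0.15, -0.16 and -0.25. Litter means of Pfkp ran from 75.7 CPM in a control litter to 323 CPM in an LDHA/B+CRMP1+STIP1 litter, and the group ranges overlapped. Pfkp also varied with measures of the library itself, with r of -0.51 for total counts and -0.69 for the summed CPM of 77 ribosomal protein genes, where Ldha had 0.40 and 0.63; their part in the pattern was not tested.

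**Figure D5:**
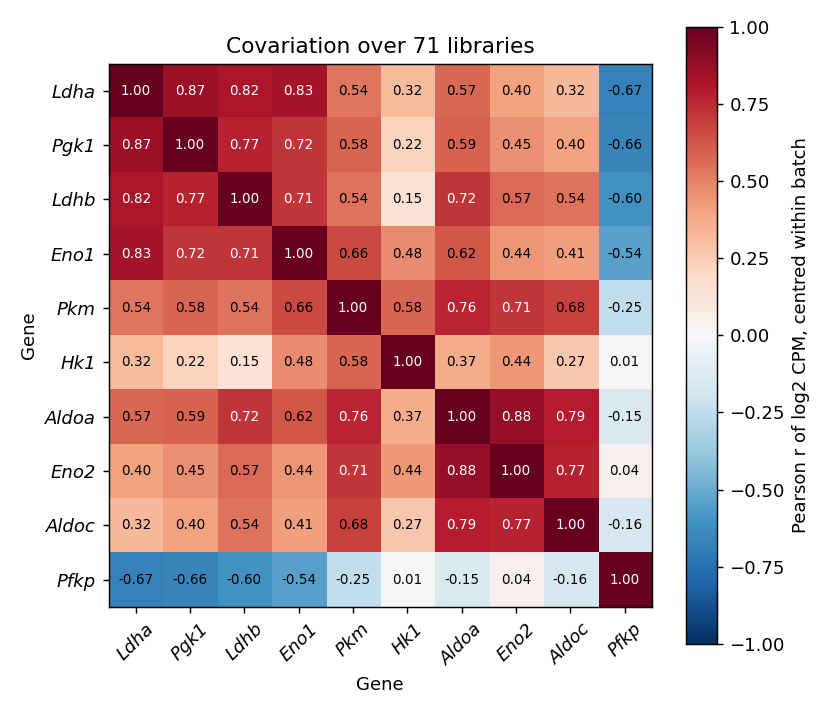
Pearson r between the 10 genes (both axes) over 71 libraries, log2 CPM centred within batch, printed in each cell and coloured from blue (-1) to red (1). Ldha, Pgk1, Ldhb and Eno1 form 1 block, Pkm, Aldoa, Eno2 and Aldoc another, and the Pfkp row is blue against the first block, down to -0.67.

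Of the 12477 genes compared, those most like Ldha were Atp5f1a, a subunit of ATP synthase (r = 0.90 over 71 libraries), Mdh1, the cytosolic malate dehydrogenase (0.89), and Ndfip1 (0.88). Those most like Ldhb were Slc25a3, the mitochondrial phosphate carrier (0.89), Atp5po (0.88) and Slc25a5, an adenine nucleotide carrier (0.87). Those most like Eno2 were Fxyd7, a sodium pump regulator (0.89), Aldoa itself (0.88) and Slc24a3, a sodium and calcium exchanger (0.88). For Pfkp, added after its values were seen, they were RGD1566401 (0.97), Mir770 (0.97) and Trank1 (0.96), all above any r between members.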

How the data were processed

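Poly-A RNA of 71 slices was sequenced as paired reads. Per the labels and the study's methods, the authors aligned reads to rn7 with STAR 2.5.4b, counted them with featureCounts and deposited raw counts per gene, with exon lengths; strand and multi-mapping settings are not given in the sources used here, so reads shared with processed pseudogenes of these genes could be counted or lost. Among counts of 1 to 9, 74.5% were even. Libraries held 24880182 to 36234952 counts. The members and lists were chosen with earlier results of these data known.

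CPM and RPKM were computed from the counts and library totals. The main test was edgeR 4.0.16 (quasi-likelihood, robust, TMM), with 1 surrogate variable from sva 3.50.0 for the exposed and pattern comparisons and batch or sex terms otherwise, on genes of at least 1 CPM in 8 libraries (all exposed) or over 1 CPM in 2 (others). Benjamini-Hochberg FDR under 0.1 over all genes tested was called. Correlations used TMM log2 CPM (prior count 2). Dam numbers of batch 2 were taken in runs of 5 as a block in an alternative added after the data were seen. Alternatives used DESeq2 1.42.0 and limma 3.58.1, and recovered changes were checked on simulated counts. P-values over animals treat littermates as separate samples. The text names all 10 members, called list genes (at most 3 a comparison by smallest p) with 7 preset enzymes, and the 3 genes most correlated with each of Ldha, Ldhb and Eno2. No 2 libraries of a group agreed within sampling noise (chi-square per gene 5.73 or more). Batch follows the sample titles and the study's description.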

Additional observations from a re-analysis of the deposited data

How the results depend on the processing

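In CRMP1+CRMP2 against control, 6 of the 10 genes passed, 3 without a CPM filter, and 0 with batch and sex as covariates, in batch 2 alone, with litter as a random effect (0 also in batch 2 alone), with counts summed per litter, or without the libraries with pineal or Hox RNA. With runs of dam numbers as a block within batch 2 there were 8, where 30.6% of 12605 genes were called. With litter as a random effect as well there were 6, where 23.5% were called. Leaving out each exposed or control litter gave 0 to 7 calls. Over all genes these fits called between 41 of 12653 (without litter 9_6) and 2889 of 12678 (without litter 9_16). Over all genes, the calls went from 1445 of 12691 to 1225 of 15767 without the CPM filter and 491 of 12691 with batch and sex. They were 127 of 12605 in batch 2 alone and 1 of 12590 without the libraries with pineal or Hox RNA. Each litter fit without the block called 0 genes. The 2 calls between control batches became 0 with median-ratio size factors and 0 with litter as a random effect. In the comparison of all exposed animals 3 passed with that block in edgeR, where 12.3% of 12384 genes were called. In the other comparisons, and under the other alternatives of that one, 0 members passed, and no called fold change reversed. Over all genes tested, the median log2 fold change lay between -0.01 and 0.01 over the 111 alternative fits. None of the 15 isozyme tests passed with animals as the unit or with litter sums. The sets without doubtful libraries, without each control litter and by litter within batch 2, and the block, were chosen after seeing the data. Among single members not called, 4 values moved by more than the spread of controls, all in CRMP1+GDA: Ldhb without litter 9_8 (0.10) and Hk1 without litter 9_18 (0.05) and with the block (0.08 in both fits). No paired analysis was possible because replicate numbers follow accession order and pair nothing; the runs of dam numbers served as the block. Each member had at least 2263 counts in every library.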
